A study of Mus musculus with 12 samples.

Results

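Aminoacyl-tRNA synthetases are the enzymes that join each amino acid to its transfer RNA, and their transcripts were followed here in mouse livers under carbon tetrachloride (CCl4), silibinin and phloridzin. Members were chosen by gene symbol alone, as the genes named for an amino acid letter followed by "ars", with the mitochondrial or second-copy endings, and Eprs, Ears2, Fars2, Farsa, Farsb and Pars2. The symbols matched 38 of the 24296 genes with Ensembl rows, through 251 transcript rows of the deposited table. Of these genes, 19 encode enzymes of the cytosol, 17 encode enzymes of the mitochondrial matrix, and 2 (Gars and Kars) serve both compartments from a single gene.

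Each synthetase recognises its transfer RNAs, activates the amino acid with ATP and transfers it to the end of the transfer RNA, which the ribosome then uses. In the cytosol several of them sit in a multisynthetase complex held by scaffold proteins, while others act alone. Mitochondria translate a small set of respiratory chain proteins with a separate set of nuclear-encoded synthetases, and many cytosolic synthetase genes are known targets of ATF4, the transcription factor of the amino acid and stress response.

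The study used male C57/BL6N mice to follow liver fibrosis and its treatment, with total RNA of 12 livers sequenced, 3 in each of 4 groups. The control group was labelled WT, and the labels do not say what it received. The model group received CCl4, a liver toxicant, over 8 weeks in 2 weekly intraperitoneal injections of 5 mL/kg. The study gives this volume for CCl4 dissolved in olive oil. The silibinin group and the phloridzin group received the same CCl4 and, from week 5, silibinin (a flavonolignan given for liver disease) or phloridzin (a plant dihydrochalcone glucoside). The labels do not give the phloridzin dose, while the study names its high-dose phloridzin group as the one sequenced. They number the livers 1 to 3 within a group without saying more about the animals, so p-values measure the spread between these samples. Depth, recovered from the step between low FPKM values, was 105.2 to 109.6 M fragments (M, 10 to the power 6) in the control group, 83.7 to 101.5 in the model group, 106.7 to 110.9 in the silibinin group and 98.5 to 104.7 in the phloridzin group.

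A gene's level was its FPKM (its fragments relative to transcript length and library depth) summed over all its rows, and means are given ± SD with n = 3 livers. Differences were tested by limma on log2(FPKM + 1), a scale that understates the change of low genes, over 13158 genes with a mean of at least 0.5 FPKM. A gene passed with a Benjamini-Hochberg adjusted p under 0.05, and was called DE if its log2 fold change was also above 1 or below -1. Of the 38 synthetases 37 were tested, because Ears2 had a mean of 0.359 FPKM. The median of all genes tested was itself shifted, by 0.34 on the log2 scale in the model against the control group, by -0.15 for silibinin against model and by -0.11 for phloridzin against model. Scaling the livers by median ratios brought these medians to 0.01, 0.01 and 0.02, so calls lost or turned by that scaling are also given.

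Cytosolic synthetase transcripts were more abundant in the fibrosis model than in control liver, with a median log2 fold change of 0.73 as deposited and 0.33 after scaling, while the median of the mitochondrial ones was 0.20 as deposited and turned to -0.19 after scaling. Summed over the 19 cytosolic genes, the level was 243, 256 and 238 FPKM in the control livers and 413, 409 and 414 in the model livers, or 245 ± 9.35 against 412 ± 2.83. The sum of the 17 mitochondrial genes was 94.4, 94.7 and 75.8 FPKM in the control livers and 118, 100.1 and 111 in the model livers. As deposited the groups did not overlap in either sum. After median-ratio scaling the cytosolic sums stayed apart, at 276, 289 and 290.1 in the control and 347, 355 and 349.6 in the model livers, while the mitochondrial sums overlapped, at 107, 107 and 92.5 in the control and 99.1, 87.0 and 93.9 in the model livers, with the lower mean in the model. The ratio of the cytosolic to the mitochondrial sum, in which any scaling between livers cancels, was 2.57, 2.7 and 3.14 in the control livers and 3.5, 4.08 and 3.72 in the model livers. In the treated groups it was 2.25, 2.77 and 2.45 with silibinin and 2.83, 2.5 and 2.56 with phloridzin, and every treated liver lay below the 3 model livers. The silibinin and phloridzin livers overlapped the control livers in this ratio.

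**Figure D1:**
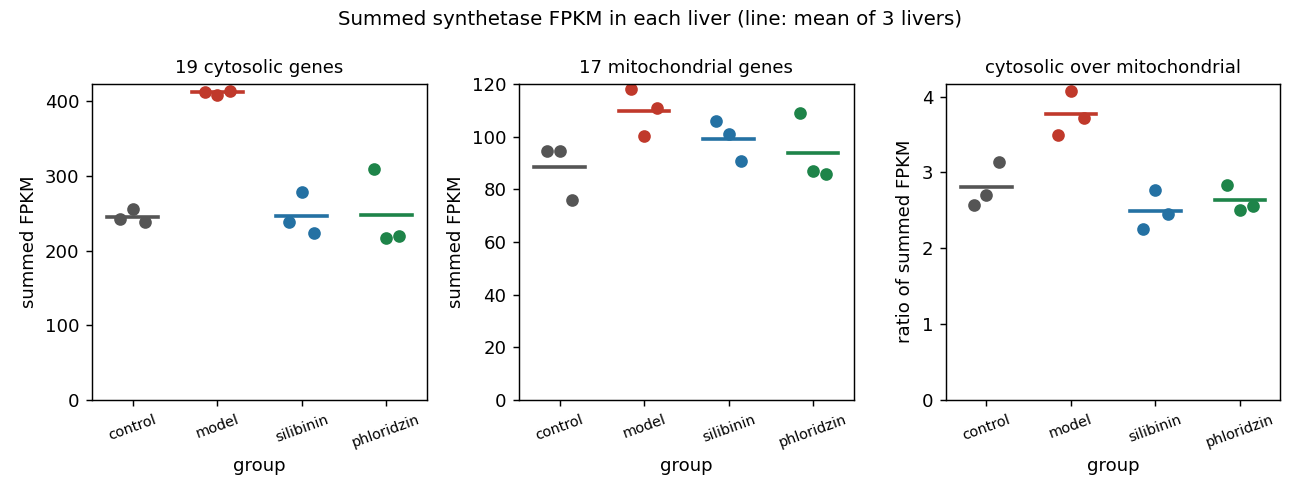
Summed FPKM of the 19 cytosolic genes (left), of the 17 mitochondrial genes (middle) and their ratio (right), on axes that start at 0, with a point for each liver and a line at the mean of 3 livers. The ratio lay between 3.5 and 4.08 in the model livers and between 2.25 and 3.14 in all others, and scaling between livers, which turned the mitochondrial median of the model comparison negative, leaves it unchanged.

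In the model against the control group, 11 of 19 cytosolic synthetases passed as higher and 0 as lower, where 31.1% of all genes tested passed as higher and 3.8% as lower. The 11 were Aars, Cars, Eprs, Farsa, Iars, Lars, Nars, Rars, Sars, Vars and Wars. Of the 16 mitochondrial synthetases tested, Cars2, Hars2, Mars2 and Wars2 passed as higher and 0 as lower as deposited, while 2 were higher and 4 lower after scaling. Gars and Kars both passed as higher. DE calls numbered 7 of 19 among the cytosolic and 1 of 16 among the mitochondrial members, against 9.42% of all genes called DE and higher. Relative to the all-gene median of 0.34, the median log2 fold change of the cytosolic members was 0.40 above and that of the mitochondrial members 0.14 below, with 16 of 19 and 6 of 16 members above it. In 12 of the 14 amino acids with a gene for each compartment under matching names, the cytosolic gene had the larger log2 fold change.

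After median-ratio scaling the balance of calls differed. Of the cytosolic members, 7 then passed as higher (Cars, Farsa, Iars, Nars, Sars, Vars and Wars) and Dars and Tarsl2 passed as lower, with a median log2 fold change of 0.33. Of the mitochondrial members, Cars2 and Wars2 passed as higher and Aars2, Fars2, Lars2 and Vars2 as lower, with a median of -0.19. Over all genes the scaled fit called 1748 genes higher and 1547 lower, where the unscaled fit called 4094 and 500. Of all scaled calls 53.1% were higher. Aars, Eprs, Lars, Rars, Gars, Kars, Hars2 and Mars2 no longer passed.

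**Figure D2:**
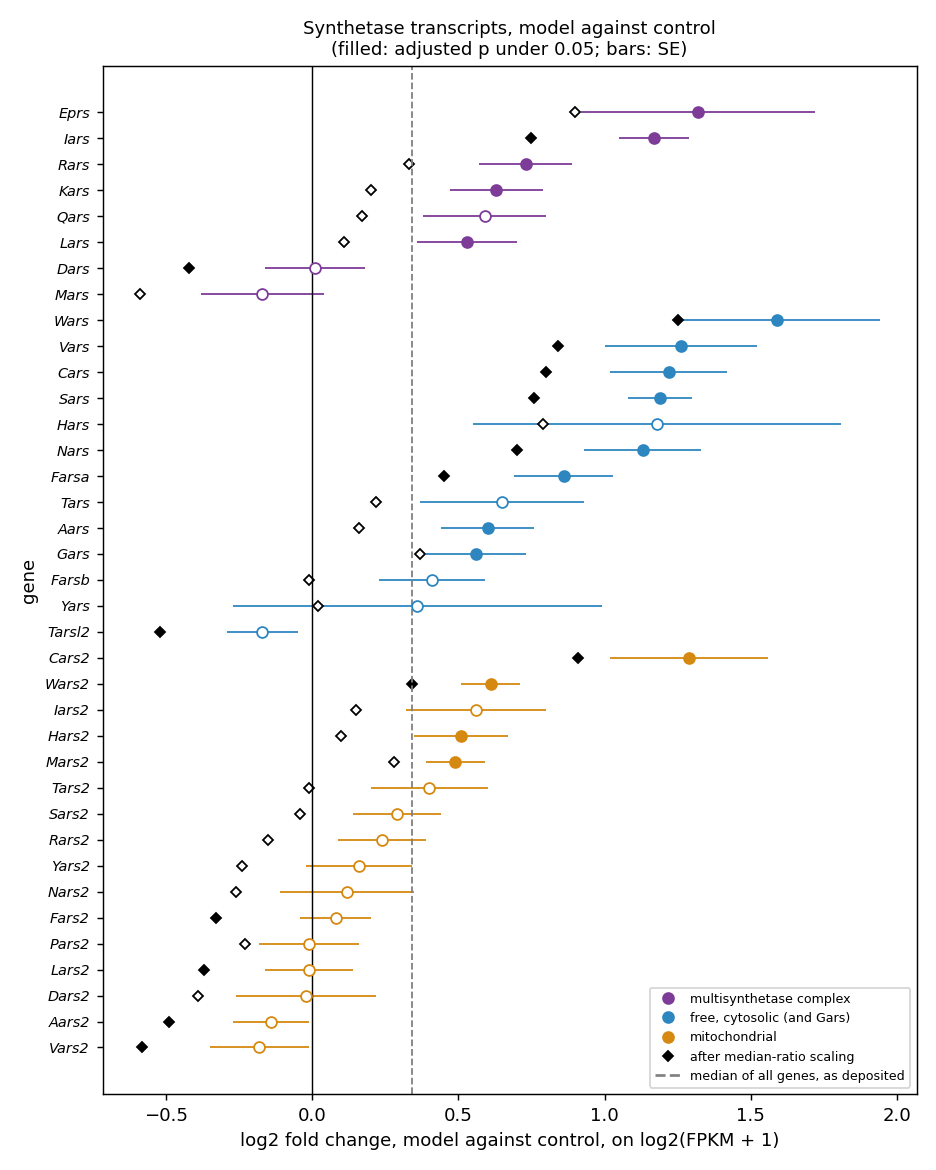
Log2 fold change of the 37 tested synthetases in the model against the control group, with SE bars, by role. Coloured circles give the values as deposited and black diamonds those after median-ratio scaling, filled where the adjusted p was under 0.05. Dars, Tarsl2, Aars2, Fars2, Lars2 and Vars2 passed as lower only after scaling, and the dashed line marks the all-gene median of 0.34.

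Within the multisynthetase complex, Iars and Eprs showed the largest differences. Iars, the isoleucyl-tRNA synthetase (chr13:49682100-49734267 on mouse build GRCm38), summed to 10.2, 9.54 and 10.9 FPKM in the control livers, 22.1, 23.6 and 27.6 in the model livers, 10.4, 11 and 10.9 in the silibinin livers and 12.5, 10.5 and 10.8 in the phloridzin livers. All 3 model livers lay far above the other 9, which were close to each other. Its log2 fold change in the model was 1.17 ± 0.12 (SE), adjusted p = 0.00013, and 0.75 after scaling, adjusted p = 0.0016. Eprs, which charges both glutamate and proline, summed to 10.5, 12.5 and 6.17 FPKM in the control livers, 25.8, 24.5 and 24.3 in the model livers, 13.8, 8.47 and 3.96 in the silibinin livers and 7.84, 4.6 and 11.4 in the phloridzin livers. The model livers again stood apart, while the other groups spread widely. Its log2 fold change was 1.32 ± 0.4, adjusted p = 0.026, but 0.9 with an adjusted p of 0.11 after scaling. Only 3.6% of the Eprs FPKM lay on its protein-coding row, the rest being on rows annotated as retained introns or other noncoding transcripts. That coding row was at 1.53, 0.0508 and 0.919 FPKM in the control livers and 0.0268, 0.0784 and 0.963 in the model livers. Its mean was lower in the model, at 0.356 against 0.832, and Eprs could not be tested on coding rows alone.

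The remaining complex members differed less. Kars, the lysyl-tRNA synthetase of both compartments and the most abundant of the pair that serve both, summed to 13.5, 16.1 and 12.8 FPKM in the control livers, 20.4, 24.3 and 22.3 in the model livers, 14.3, 19 and 15 in the silibinin livers and 19.3, 14.5 and 14.7 in the phloridzin livers. Every model liver exceeded every control liver, with a log2 fold change of 0.63 ± 0.16, adjusted p = 0.011, and 0.2 after scaling, adjusted p = 0.27. Dars, the aspartyl-tRNA synthetase and the cytosolic member with the highest mean, summed to 40.2, 43.3 and 30.3 FPKM in the control livers, 38.1, 35.3 and 40.3 in the model livers, 39.9, 41.7 and 36.7 in the silibinin livers and 50.2, 39.7 and 33.6 in the phloridzin livers. The 4 groups overlapped throughout, with a log2 fold change of 0.01 ± 0.17 as deposited that became -0.42 after scaling, adjusted p = 0.037. Outside the rule for naming members, and after their values were seen, Rars and Lars are named as passed as deposited, at 0.73 and 0.53, while Qars had 0.59 with an adjusted p of 0.053, and Mars had -0.17. The complex as a whole counted 5 of 8 members passed as higher, where 31.1% of all genes did, with a median log2 fold change of 0.61. After scaling 1 was higher (Iars) and 1 lower (Dars), where 1748 and 1547 of 13158 genes were.

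Among the free cytosolic enzymes, Sars gave the tightest result. Sars, the seryl-tRNA synthetase (chr3:108424865-108445209), summed to 11.1, 11.4 and 9.71 FPKM in the control livers, 24.6, 26.3 and 26 in the model livers, 10.3, 11.2 and 10.1 in the silibinin livers and 12.5, 10.5 and 11.8 in the phloridzin livers. The 3 model livers were above all others and within a narrow range. Its log2 fold change was 1.19 ± 0.11, adjusted p = 8.4e-05, the smallest adjusted p of any member, and 0.76 after scaling, adjusted p = 0.00053. Cars, the cysteinyl-tRNA synthetase, summed to 10, 7.99 and 7.26 FPKM in the control livers, 21.3, 23.7 and 17.7 in the model livers, 13.8, 13.3 and 9.75 in the silibinin livers and 14.1, 9.08 and 9.84 in the phloridzin livers. No model liver overlapped another group, and the treated livers lay between model and control on average. Its log2 fold change was 1.22 ± 0.2, adjusted p = 0.0013, and 0.8 after scaling, adjusted p = 0.0058.

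Vars and Wars had the largest log2 fold changes of the free enzymes with a less even spread. Vars, which charges valine, summed to 12.6, 11.6 and 9.41 FPKM in the control livers, 28.8, 26.6 and 28.8 in the model livers, 16.8, 16.3 and 14.2 in the silibinin livers and 29.6, 12.2 and 14.8 in the phloridzin livers. Model and control livers were fully separate, and phloridzin liver 1 alone reached the model level. The log2 fold change in the model was 1.26 ± 0.26, adjusted p = 0.0043, and 0.84 after scaling, adjusted p = 0.018. Wars, the tryptophanyl-tRNA synthetase, whose transcription interferon is known to raise, summed to 1.36, 1.97 and 1.6 FPKM in the control livers, 8.66, 4.01 and 9.32 in the model livers, 1.82, 4.88 and 1.41 in the silibinin livers and 2.13, 1.89 and 1.33 in the phloridzin livers. Its level was low outside the model group, and model liver 2 sat below the other model livers and below silibinin liver 2. With 1.59 ± 0.35 it had the largest log2 fold change of the cytosolic members, adjusted p = 0.0059, and 1.25 after scaling, adjusted p = 0.018.

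Aars, which charges alanine, summed to 24.6, 26.3 and 33 FPKM in the control livers, 39.2, 46.1 and 42.5 in the model livers, 19, 20.1 and 22 in the silibinin livers and 25.6, 18 and 17.6 in the phloridzin livers. It was higher in every model liver than in any control liver, at 0.6 ± 0.16, adjusted p = 0.017, but 0.16 after scaling, adjusted p = 0.5. Nars and Farsa, a subunit of the phenylalanyl enzyme, both named after their values were seen, passed at 1.13 and 0.86, and at 0.7 and 0.45 after scaling. Farsb, the other subunit, had 0.41 with an adjusted p of 0.099 and -0.01 after scaling. Hars and Yars were named after their values were seen. Hars summed to 1.7, 6.73 and 8.45 FPKM in the control livers, 11.6, 11.9 and 13.1 in the model livers, 1.77, 6.31 and 1.7 in the silibinin livers and 9.68, 1.73 and 1.37 in the phloridzin livers. Its model livers were close together and above all 9 others, which spread widely within each group. Its log2 fold changes of 1.18 in the model, -1.80 with silibinin and -1.69 with phloridzin did not pass, adjusted p = 0.17, 0.083 and 0.11. Yars summed to 2.05, 9.38 and 1.73 FPKM in the control livers, 5.75, 5.09 and 3.48 in the model livers, 9.87, 10 and 1.87 in the silibinin livers and 2.33, 7.68 and 2.91 in the phloridzin livers. In Yars the spread within the control and treated groups lay mostly in the coding transcript. It was at 8.18 FPKM in control liver 2, 8.25 and 7.98 in silibinin livers 1 and 2 and 6.62 in phloridzin liver 2. It was at 0.15 or below in all others. In the model livers it was at 0.00411, 0.0339 and 0.00343, so nearly all of their Yars level lay on other rows.

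**Figure D3:**
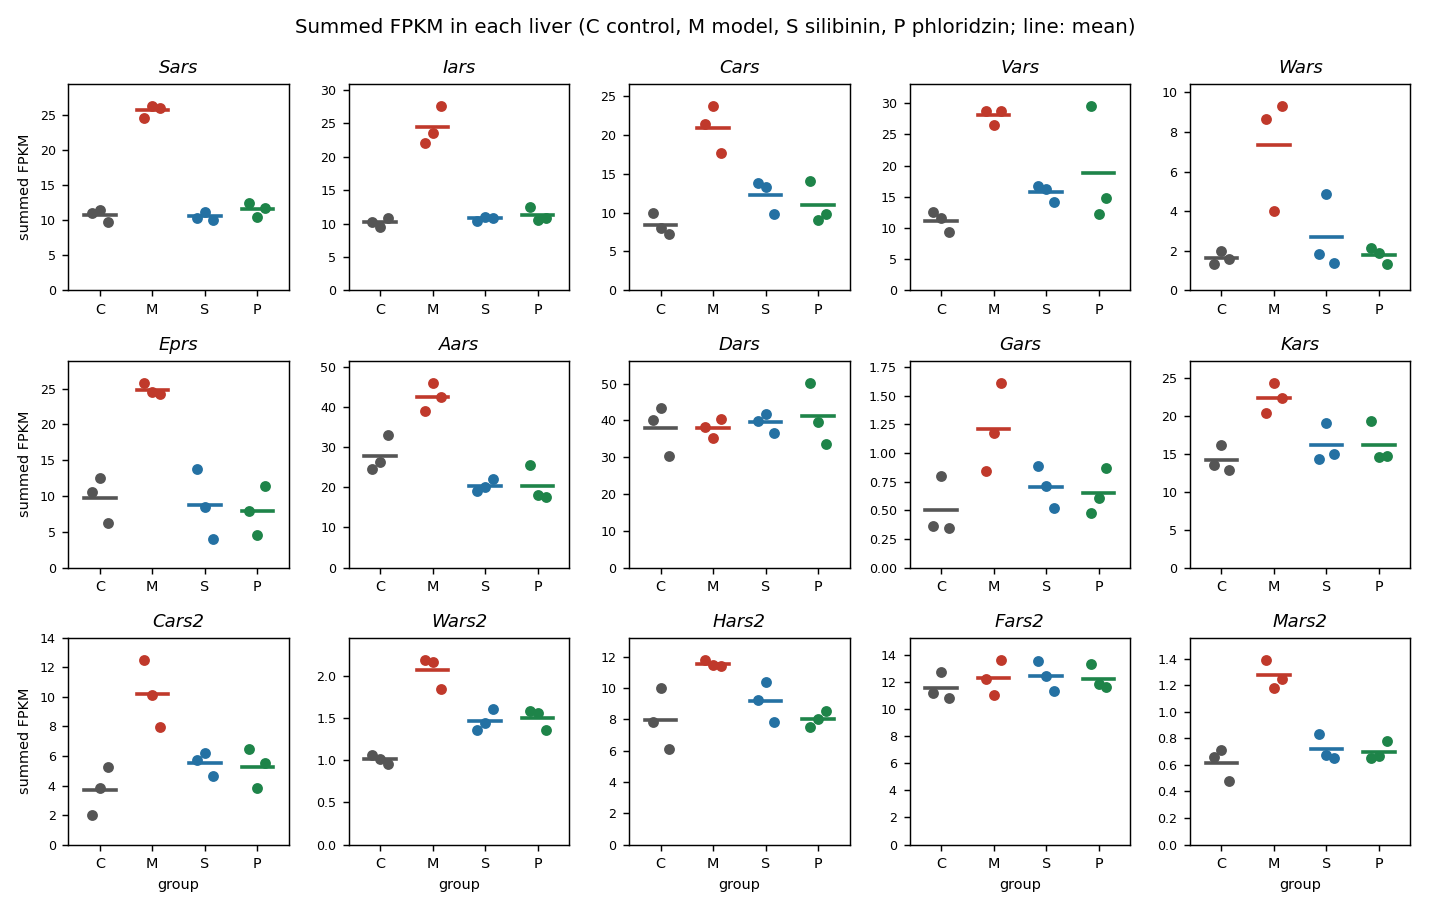
Summed FPKM of 15 synthetases in each liver, on axes that start at 0 for the control (C), model (M), silibinin (S) and phloridzin (P) groups, with a line at each mean. In Sars and Iars the model livers lie above 22 FPKM and all others below 13, while Dars and Fars2 overlap between groups.

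Gars, the glycyl-tRNA synthetase of both compartments, had little signal in the annotated rows, with 45 to 167 recovered fragments per liver. It summed to 0.358, 0.795 and 0.346 FPKM in the control livers, 0.843, 1.17 and 1.61 in the model livers, 0.888, 0.708 and 0.516 in the silibinin livers and 0.479, 0.607 and 0.866 in the phloridzin livers. The model livers lay above the control livers, and silibinin liver 1 and phloridzin liver 3 reached the lowest of them. Only 15.8% of that lay on its coding row, so the level of the full transcript was not measured well here. The log2 fold change was 0.56 ± 0.17, adjusted p = 0.028, and 0.37 after scaling, adjusted p = 0.14.

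Of the mitochondrial enzymes, Cars2 stood apart from the rest of its class. Cars2, which charges cysteine in the matrix, summed to 2.01, 3.86 and 5.25 FPKM in the control livers, 12.5, 10.1 and 7.98 in the model livers, 5.74, 6.2 and 4.64 in the silibinin livers and 6.45, 3.82 and 5.53 in the phloridzin livers. All 3 model livers were above all 9 others, with a log2 fold change of 1.29 ± 0.27, adjusted p = 0.0047, and 0.91 after scaling, adjusted p = 0.032. This difference lay outside the coding row, which held 22.3% of its FPKM, since the coding row alone gave 0.2, adjusted p = 0.62. Wars2 summed to 1.06, 1.02 and 0.955 FPKM in the control livers, 2.19, 2.17 and 1.84 in the model livers, 1.36, 1.44 and 1.61 in the silibinin livers and 1.58, 1.56 and 1.36 in the phloridzin livers. The model livers were again the 3 highest and the control livers the 3 lowest, at 0.61 ± 0.1, adjusted p = 0.0017, and 0.34 after scaling, adjusted p = 0.035. Hars2 summed to 7.86, 10 and 6.11 FPKM in the control livers, 11.8, 11.5 and 11.4 in the model livers, 9.25, 10.4 and 7.86 in the silibinin livers and 7.54, 8.06 and 8.54 in the phloridzin livers. Its model livers exceeded all others, at 0.51 ± 0.16, adjusted p = 0.031, but 0.1 after scaling, adjusted p = 0.64.

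Fars2, the single-chain mitochondrial phenylalanyl enzyme and the most abundant of its class, summed to 11.2, 12.7 and 10.8 FPKM in the control livers, 12.2, 11 and 13.6 in the model livers, 13.5, 12.4 and 11.3 in the silibinin livers and 13.3, 11.8 and 11.6 in the phloridzin livers. The groups overlapped, at 0.08 ± 0.12 as deposited, and the value became -0.33 after scaling, adjusted p = 0.035. Mars2, named after its values were seen because it was the remaining mitochondrial call, summed to 0.656, 0.716 and 0.481 FPKM in the control livers, 1.39, 1.18 and 1.25 in the model livers, 0.834, 0.673 and 0.65 in the silibinin livers and 0.654, 0.668 and 0.781 in the phloridzin livers. Its model livers were the 3 highest, at 0.49 ± 0.1, adjusted p = 0.0048, and 0.28 after scaling, adjusted p = 0.058. The 12 mitochondrial members that did not pass as deposited, Fars2 among them, lay between -0.18 and 0.56.

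As deposited, the 3 model livers all lay above the 3 control livers for 15 of 19 cytosolic, both dual and 6 of 16 mitochondrial members, against 45.1% of all genes. This count was not repeated after scaling. The scaled sums of the dual genes overlapped, at 15.8, 19.1 and 16.1 in the control and 17.8, 22.2 and 20.2 in the model livers. With protein-coding rows only, 8 of 18 cytosolic and 2 of 16 mitochondrial members passed as higher, the latter being Mars2 and Wars2, where 2732 of 11313 genes did. With the single most abundant transcript of each gene, 7 of 19 cytosolic and 4 of 16 mitochondrial members (Cars2, Iars2, Mars2 and Wars2) passed as higher, where 2301 of 12333 genes did. Sars, Iars, Cars, Vars, Nars, Farsa, Rars, Wars, Kars, Cars2, Mars2 and Wars2 passed with each of the 12 livers left out in turn, Aars in 9 of 12, Eprs and Gars in 8, and Hars2 and Lars in 7.

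The promoters of Aars, Iars, Gars and Sars are given as annotated. RefSeq promoters of build GRCm38.p6, each of 300 bases around a start, were found for 28 of the 38 members (29 promoters). The core of the CEBP-ATF composite element, TGATGNAA on either strand, lay in those of Aars, Gars, Iars, Tars and Yars, that is in 4 of 12 cytosolic, 1 of 2 dual and 0 of 14 mitochondrial members found, against 3.97% of all 32851 promoters. The E-box CACGTG lay in those of Aars, Farsb, Iars, Tars and Ears2, against 7.15% of all promoters. That is 4 of 12 cytosolic, 0 of 2 dual and 1 of 14 mitochondrial members found. Of the cytosolic members with either motif, Aars and Iars passed as higher in the model as deposited, and Farsb, Tars and Yars did not. No promoter was found for Cars, Lars, Nars, Rars, Vars and Wars, which passed as higher there, or for Hars. Capitals mark both motifs in the sequences, which run 5′ to 3′ along the gene's strand.
Aars, chr8:111033592-111033891, strand +: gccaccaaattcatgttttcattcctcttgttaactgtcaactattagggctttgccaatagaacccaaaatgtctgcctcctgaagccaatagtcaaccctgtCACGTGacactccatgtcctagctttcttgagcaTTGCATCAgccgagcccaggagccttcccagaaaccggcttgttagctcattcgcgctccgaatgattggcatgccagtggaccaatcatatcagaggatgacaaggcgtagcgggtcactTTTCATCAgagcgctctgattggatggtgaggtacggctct
Iars, chr13:49681880-49682179, strand +: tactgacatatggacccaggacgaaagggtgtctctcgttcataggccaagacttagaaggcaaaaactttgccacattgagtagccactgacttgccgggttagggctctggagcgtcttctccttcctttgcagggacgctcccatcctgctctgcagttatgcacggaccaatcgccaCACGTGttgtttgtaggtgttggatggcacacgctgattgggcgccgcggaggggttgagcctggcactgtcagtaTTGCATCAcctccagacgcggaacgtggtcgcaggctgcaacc
Gars, chr6:55037751-55038050, strand +: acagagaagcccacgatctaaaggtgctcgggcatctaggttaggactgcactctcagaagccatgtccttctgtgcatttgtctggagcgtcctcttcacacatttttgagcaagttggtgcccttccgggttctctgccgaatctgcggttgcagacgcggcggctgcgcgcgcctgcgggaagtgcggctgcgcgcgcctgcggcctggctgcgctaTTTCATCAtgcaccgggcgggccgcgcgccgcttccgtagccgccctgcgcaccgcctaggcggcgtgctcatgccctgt
Sars, chr3:108445210-108445509, strand -: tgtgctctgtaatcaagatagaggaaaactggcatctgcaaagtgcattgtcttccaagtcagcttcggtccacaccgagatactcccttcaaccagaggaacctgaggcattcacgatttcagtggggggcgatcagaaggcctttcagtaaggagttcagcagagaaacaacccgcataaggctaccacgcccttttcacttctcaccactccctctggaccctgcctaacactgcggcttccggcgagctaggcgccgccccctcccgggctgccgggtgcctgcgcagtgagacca
In Aars the E-box began 146 bases and a composite match 112 bases before the start, with a second composite match after it, and in Iars the E-box began 69 bases before the start, with a composite match after it. The Gars match began 30 bases before the start, and the Sars window held no match to either motif although Sars gave the smallest adjusted p. A match describes letters in this window and does not show a bound factor.

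Both drug groups were compared with the same 3 model livers, so their values are given side by side and are not independent of each other. The median log2 fold change of the cytosolic members was -0.80 with silibinin and -0.68 with phloridzin, and -0.59 and -0.50 after scaling, while the mitochondrial median was -0.10 with silibinin, which scaling turned to 0.07, and -0.20 with phloridzin, or -0.07 after scaling. Silibinin gave 9 of 19 cytosolic members passed as lower (Aars, Cars, Eprs, Farsa, Iars, Nars, Rars, Sars and Wars), where 11.4% of all genes passed as lower, and Tarsl2 passed as higher, where 2.62% of all genes did. With phloridzin Aars, Cars, Eprs, Farsa, Iars, Nars, Rars, Sars and Wars passed as lower, where 10.4% of all genes passed as lower and 2.5% as higher. Of the mitochondrial members, Mars2 passed as lower with silibinin and with phloridzin, and 0 passed as higher. Neither Gars nor Kars passed in these comparisons.

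Sars, Iars and Aars had the smallest adjusted p in both comparisons. Sars returned to 10.5 ± 0.618 FPKM with silibinin and 11.6 ± 1 with phloridzin, close to the 10.7 ± 0.888 of the control group. Its log2 fold change was -1.21 ± 0.11 with silibinin, adjusted p = 9.2e-05, and -1.08 ± 0.11 with phloridzin, adjusted p = 0.00019. Iars had -1.11 ± 0.12 with silibinin, adjusted p = 0.00024, and -1.05 ± 0.12 with phloridzin, adjusted p = 0.00036. In both genes all 6 treated livers were below all 3 model livers. Aars had -1.03 ± 0.16 with silibinin, adjusted p = 0.0028, and -1.04 ± 0.16 with phloridzin, adjusted p = 0.003, and its silibinin livers were also below every control liver. After scaling these 3 genes kept log2 fold changes between -1 and -0.82 and passed in both comparisons.

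Eprs and Wars had the largest log2 fold changes among the members that passed, at -1.55 ± 0.4 and -1.22 ± 0.35 with silibinin, adjusted p = 0.027 and 0.041, and -1.6 ± 0.4 and -1.52 ± 0.35 with phloridzin, adjusted p = 0.025 and 0.017. The Eprs livers of both drugs were spread widely, and the Wars value of silibinin liver 2 overlapped the model group, while the phloridzin livers were close to each other in Wars. Cars had -0.73 ± 0.2 with silibinin, adjusted p = 0.033, and -0.88 ± 0.2 with phloridzin, adjusted p = 0.016. After scaling Cars and Wars no longer passed with silibinin, at -0.52 and -1.03, each with an adjusted p of 0.062, nor did Rars with phloridzin, at -0.48, adjusted p = 0.058. Eprs passed after scaling in both comparisons, at -1.34 and -1.43, as did Cars and Wars with phloridzin, at -0.71 and -1.36. The dual and mitochondrial members named above did not pass, with -0.45 in both comparisons for Kars, -0.37 and -0.41 for Gars, -0.76 and -0.84 for Cars2, -0.31 and -0.29 for Wars2, and -0.32 and -0.48 for Hars2. Mars2 passed at -0.40 ± 0.1, adjusted p = 0.026, with silibinin and at -0.42 ± 0.1, adjusted p = 0.025, with phloridzin. Tarsl2, a threonyl-tRNA synthetase-like enzyme named after its values were seen, went the other way, at 0.44 ± 0.12 with silibinin, adjusted p = 0.037, and 0.41 ± 0.12 with phloridzin, adjusted p = 0.052, and passed with both after scaling, at 0.60 and 0.54. Dars and Fars2 had values between 0 and 0.10 in both comparisons.

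**Figure D4:**
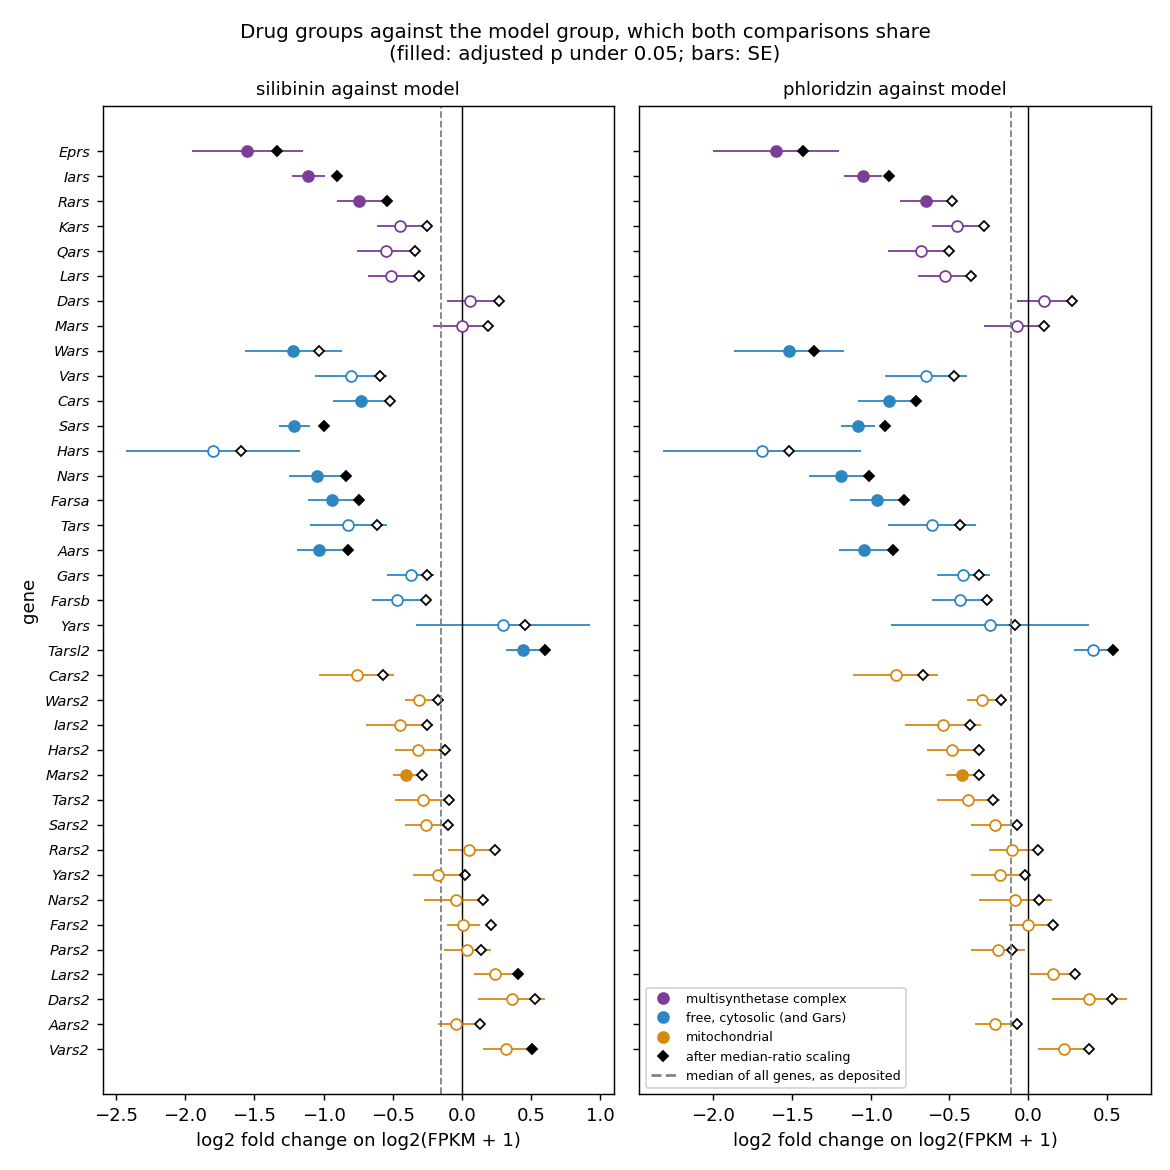
Log2 fold change of the 37 tested synthetases for silibinin (left) and phloridzin (right) against the shared model group, with SE bars, drawn as for the model comparison. The dashed lines mark the all-gene medians of -0.15 and -0.11, and Lars2 and Vars2 passed as higher with silibinin only after scaling.

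After median-ratio scaling, 7 cytosolic members passed as lower with silibinin and 8 with phloridzin, and Tarsl2 as higher with each. Mars2 no longer passed with either drug, and Lars2 and Vars2 passed as higher with silibinin. Over all genes the scaled fits called 732 genes higher and 853 lower with silibinin, against 345 and 1504 as deposited (46.2% of scaled calls higher), and 621 and 825 with phloridzin, against 329 and 1362 (42.9% higher). As deposited, DE calls as lower covered 6 of 19 cytosolic members with each drug, where 3.25% of all genes were DE and lower with silibinin and 2.92% with phloridzin. Also as deposited, all 3 treated livers lay below all 3 model livers for 14 of 19 cytosolic and 6 of 16 mitochondrial members with silibinin, where 27.8% of all genes did. With phloridzin this held for 13 and 6, where 22.4% of all genes did. These overlaps were not counted after scaling.

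Single livers weighed on the counts of cytosolic members that passed against the model group. With silibinin the count of 10 in either direction became 6 without model liver 1 and 5 without silibinin liver 3, and with phloridzin the count of 9 became 14 without phloridzin liver 1 and 5 without phloridzin liver 2. Aars, Farsa, Iars, Nars and Sars passed in both comparisons with every liver left out in turn. Farsa, with 41.5% of its FPKM on coding rows, did not pass on those rows in the model, at -0.18, adjusted p = 0.89, or with silibinin or phloridzin, at 0.35 and -0.95. Its coding rows varied widely, with 10.6, 0.0324 and 4.96 FPKM in the model livers and 3.05, 6.46 and 2.44 in the control livers. Phloridzin liver 1 had a cytosolic sum of 309 FPKM, against 217 and 219 in the other phloridzin livers, and it also had the highest summed level of the proliferating cell markers, at 74.2 FPKM against 10.2 and 7.71, and of the stellate cell markers, at 202 against 71.9 and 54.7. The part of these cells in the result was not tested.

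The drugs were then compared with each other and with the control group. Between phloridzin and silibinin 0 of the 37 members passed by limma, where 0.0228% of all genes passed, with 0 members at an unadjusted p under 0.05, where 3.75% of all genes were, and 0 by voom, and the member log2 fold changes ran from -0.54 to 0.21. The members with the smallest p here were Pars2, Aars2 and Sars, at -0.23 ± 0.17, -0.17 ± 0.13 and 0.13 ± 0.11, each with an adjusted p of 1. Pars2 summed to 0.471, 1.39 and 1.06 FPKM in the control livers, 1, 0.899 and 0.859 in the model livers, 1.27, 0.788 and 0.897 in the silibinin livers and 0.604, 0.818 and 0.635 in the phloridzin livers, and Aars2 summed to 4.51, 4.4 and 3.78 FPKM in the control livers, 4.05, 3.36 and 3.84 in the model livers, 3.49, 3.87 and 3.51 in the silibinin livers and 3.8, 2.69 and 2.88 in the phloridzin livers. As deposited the phloridzin livers lay below all model livers in Pars2, a gene with a mean of 0.891 FPKM, but Pars2 did not pass against the model. The silibinin and phloridzin livers overlapped in both genes. The lack of calls between the drugs does not show that they act alike on these genes.

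Against the control group, 0 of 37 members passed by limma with silibinin, where 5.02% of all genes passed, and 0 of 37 with phloridzin, where 7.99% did. At an unadjusted p under 0.05 there were 3 members with silibinin, where 21.5% of all genes were, and 4 with phloridzin, where 24.6% were, and voom also passed 0 in both. The smallest adjusted p belonged to Wars2, at 0.29 ± 0.1, adjusted p = 0.13, with silibinin and 0.31 ± 0.1, adjusted p = 0.092, with phloridzin, and all 6 treated livers exceeded all 3 control livers. Aars followed at -0.43 ± 0.16 and -0.44 ± 0.16, adjusted p = 0.16 and 0.12, and after scaling it passed as lower with phloridzin at -0.7, adjusted p = 0.035, as did Aars2 at -0.57, adjusted p = 0.014. Cars had 0.49 ± 0.2 with silibinin, adjusted p = 0.18, and Aars2 had -0.35 ± 0.13 with phloridzin, adjusted p = 0.13. The cytosolic sums of 239, 279 and 223 FPKM with silibinin and 309, 217 and 219 with phloridzin overlapped the 238 to 256 of the control livers as deposited. After scaling they were 232, 259.5 and 237 with silibinin and 272, 218 and 223 with phloridzin, all below the 276 to 290.1 of the control livers.

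Other genes of the charging pathway were counted from fixed lists. The scaffold proteins of the multisynthetase complex Aimp1 and Eef1e1 both rose in the model group, at 0.39 and 1.05, and fell with silibinin, at -0.40 and -0.98. With phloridzin they had -0.32 and -0.68 and did not pass, and Aimp2 was under the filter. After scaling Eef1e1 passed in the model at 0.70 and with silibinin at -0.79, and Aimp1 did not, at -0.01 and -0.20. Of 14 accessory factors of charging, 1 passed as higher and 1 as lower in the model, where 31.1% and 3.8% of all genes did. Xpot, which exports transfer RNA from the nucleus, passed as higher in the model at 1.38 and as lower with phloridzin at -1.43, but not after scaling, at 0.98 and -1.26. After scaling 0 of the 14 passed as higher in the model and 3 as lower (Dtd1, Dtd2 and Sephs2), with a median of -0.30, where 1748 and 1547 of 13158 genes passed. Scaled values of Dtd1 and Sephs2 passed as higher with phloridzin. Sephs2, which makes selenophosphate, passed as lower in the model at -0.74 and as higher with silibinin at 0.77 and with phloridzin at 0.69. Sephs2 was abundant, at 455, 272, 463 and 438 FPKM on average in the control, model, silibinin and phloridzin groups.

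Most genes on the list for the ATF4 and amino acid response passed as higher in the model. Of 23 tested, 18 passed as higher and 1 as lower, with a median log2 fold change of 1.54 against 0.34 for all genes, where 31.1% of all genes passed as higher, and after scaling 14 passed as higher and 1 as lower, where 1748 of 13158 genes passed as higher. The 18 were Aldh18a1, Asns, Atf3, Atf4, Cebpb, Chac1, Ddit3, Ddit4, Fgf21, Mthfd2, Nupr1, Phgdh, Ppp1r15a, Psat1, Slc3a2, Slc7a11, Slc7a5 and Trib3, and Psph, Pycr1 and Vldlr were under the filter. Atf3, a stress-induced transcription factor, summed to 0.326, 0.242 and 0.35 FPKM in the control livers, 42.6, 42.8 and 50.2 in the model livers, 2.43, 2.24 and 0.934 in the silibinin livers and 3.24, 1.5 and 1.51 in the phloridzin livers. Psat1, which makes serine, summed to 0.346, 0.113 and 0.275 FPKM in the control livers, 19, 18.9 and 21.9 in the model livers, 2.74, 3.6 and 0.978 in the silibinin livers and 7.57, 1.43 and 1.17 in the phloridzin livers, and Atf4 itself summed to 3.89, 4.66 and 5.84 FPKM in the control livers, 10.3, 15.1 and 15.7 in the model livers, 6.17, 3.63 and 10.6 in the silibinin livers and 4.01, 3.72 and 3.29 in the phloridzin livers. Their log2 fold changes in the model were 5.14, 4.07 and 1.33, and 4.86, 3.8 and 0.94 after scaling. Atf4 itself did not pass after scaling in the model, adjusted p = 0.056, or with silibinin, at -0.79, adjusted p = 0.15, and it passed with phloridzin at -1.46, adjusted p = 0.018. Asns, Cebpb and Ddit4 also lost their call in the model. The exception was Cth, which makes cysteine, at -1.05 in the model and 1.43 and 1.65 with silibinin and phloridzin. With silibinin 17 of 23 passed as lower and 1 as higher, where 11.4% of all genes passed as lower, and with phloridzin 16 and 1, where 10.4% did, with medians of -1.49 and -1.45, and after scaling 15 and 16 passed as lower, where 853 and 825 of 13158 genes did. Against the control group, Aldh18a1 and Atf3 passed as higher with silibinin, at 0.75 and 1.09, and Aldh18a1, Atf3 and Mthfd2 passed as higher with phloridzin, at 1.07, 1.19 and 0.73, of which Mthfd2 did not pass after scaling. Of all 13158 genes, 604 passed as higher with silibinin and 988 with phloridzin in these comparisons. Shmt2, Sesn2, Atf5 and Eif4ebp1 did not pass in any of these 3 comparisons.

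**Figure D5:**
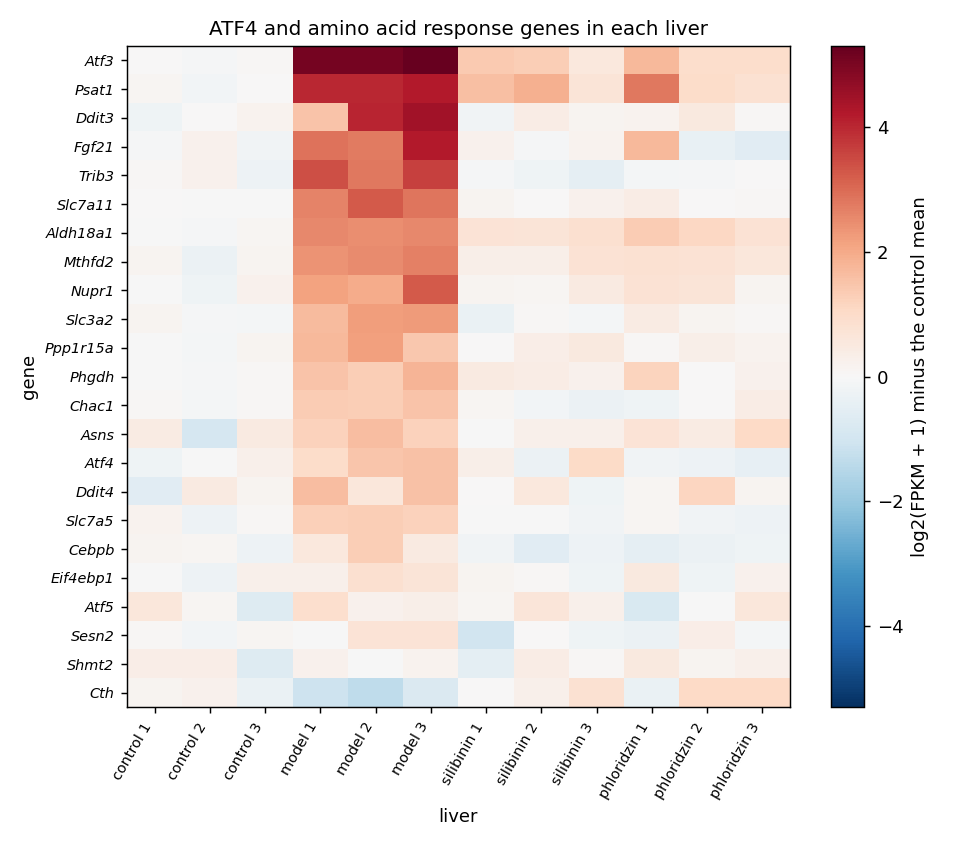
Heat map of 23 ATF4 and amino acid response genes in each of 12 livers, as log2(FPKM + 1) minus the control mean, red for higher and blue for lower. The 3 model livers are highest for most genes, and Cth is lowest in them. Atf3 and Aldh18a1 are higher in every treated liver than in any control liver.

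Of 9 elongation factors, 2 passed as higher in the model and 1 as lower, where 31.1% of all genes passed as higher and 3.8% as lower. These were Eef1b2 and Eef1g, subunits of the complex that reloads elongation factor 1 alpha with GTP, at 1.42 and 0.66. The lower one was Tsfm, the mitochondrial counterpart of that complex in role, at -0.80. Eef1b2 and Eef1g fell with silibinin, at -1.19 and -0.62, and Eef1b2 fell with phloridzin at -1.07, where Tsfm passed as higher at 0.85. Among 12 large-subunit proteins of the mitochondrial ribosome 0 passed as higher in the model and Mrpl12 as lower at -0.45, with a median of 0.08 that turned to -0.30 after scaling, where Mrpl2, Mrpl11, Mrpl12 and Mrpl15 passed as lower, as did 1547 of 13158 genes. Mrpl12 passed as higher with phloridzin at 0.56, and at 0.73 after scaling, where Mrpl12 and Mrpl15 also passed as higher with silibinin. After scaling Eef1g no longer passed in the model, at 0.22, or with silibinin, at -0.41, adjusted p = 0.062, and Gfm1 and Tsfm passed as lower in the model. Tsfm passed as higher with both drugs after scaling, at 0.73 with silibinin, adjusted p = 0.039, and 0.98 with phloridzin, adjusted p = 0.012.

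Markers of the cells of the liver were read for the same groups, since fewer cells of a type and less RNA per cell cannot be told apart in bulk tissue. The 6 hepatocyte markers were all present, led by Alb, with a summed level of 16991 to 22319 FPKM in the control livers and 15824 to 27228 in the model livers, which overlap, and Cyp2e1, a CCl4-activating enzyme, passed as lower in the model at -2.35. The 7 stellate cell and myofibroblast markers summed to 16.3, 11.5 and 12.4 FPKM in the control livers and 144, 113 and 147 in the model livers, led by Col3a1, with 5 of 7 passed as higher, where 31.1% of all genes did. They summed to 143, 134 and 59.3 with silibinin and 202, 71.9 and 54.7 with phloridzin, so that 3 of the 6 treated livers lay below every model liver, and 0 of 7 and 1 of 7 (Lrat) passed as lower, where 11.4% and 10.4% of all genes did. The 6 macrophage markers, led by Lyz2, summed to 124, 225 and 176 in the control, 323, 514 and 431 in the model, 386, 500 and 362 in the silibinin and 609, 588 and 317 in the phloridzin livers, and 3 of 6 passed as higher in the model, against the same 31.1%. After scaling 4 of 7 stellate cell and 1 of 6 macrophage markers (Lyz2) passed as higher in the model, where 1748 of 13158 genes did.

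The 5 endothelial markers, led by Clec4g, summed to 50.5 to 65.4 FPKM in the control and 57.5 to 73.8 in the model livers, with 0 passed. Of 4 proliferation markers, led by Top2a, 2 (Top2a and Ccnb1) passed as higher in the model, where 31.1% of all genes did, and the sum went from 0.534, 1.24 and 1.53 in the control to 13.4, 11.3 and 14.4 in the model livers. It was 21.6, 16.7 and 12.9 with silibinin and 74.2, 10.2 and 7.71 with phloridzin, with 0 of 4 passed against the model. The sums in control and model livers were 0.932 to 1.69 and 2.33 to 4.08 for 5 T and B cell markers led by Cd3e, 6.31 to 18.8 and 21.8 to 60.8 for 3 neutrophil markers led by S100a8, and 1.76 to 2.98 and 3.93 to 5.69 for 4 cholangiocyte markers led by Sox9. Of these 12 genes 6 were tested and Krt19 passed as higher, where 31.1% of all genes did, at 0.73, but not after scaling, at 0.51, adjusted p = 0.085, and Cd3g, Cd8a, Cd79a, Ly6g, Krt7 and Epcam were under the filter, with none at 0 in every liver. The sums in the silibinin and phloridzin livers were 2.16 to 3.14 and 2.53 to 5.49 for the T and B cell markers. They were 7.75 to 21.5 and 16.8 to 73.0 for the neutrophil markers, and 3.76 to 7.03 and 4.74 to 7.38 for the cholangiocyte markers. As deposited, every silibinin liver lay below every model liver in the neutrophil sum, but narrowly, at 21.5 against 21.8 for the nearest livers. Of the 2 neutrophil markers tested, 0 passed in that comparison, where 11.4% of all genes passed as lower. The marker sums were not scaled. The part of these cells in the synthetase result was not tested.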

How the data were processed

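Total RNA of 12 mouse livers was sequenced on an Illumina platform. The submitters' processing notes name bcl2fastq, FastQC 0.11.5, HISAT2 2.1.0, StringTie 1.3.3b and DESeq 1.28.0, on build mm10. The authors deposited FPKM values for 169430 transcript rows, of which 18991 were assembled without a gene name and could not be assigned to a gene. Rows were summed per symbol, and log2(FPKM + 1) was fitted for 12 livers in limma 3.58.1 with a variance trend (R 4.3.3, data.table, version 1.17.8). Figures and tables used Python 3.11.15, numpy 2.4.6, pandas 2.3.3 and matplotlib 3.10.9. The fit was tested on simulated data. Members and lists were chosen with earlier results of these data known. Livers were named by group and number, and 0 columns were left without a sample. Values in every liver were given for the 6 cytosolic and 3 mitochondrial members with the largest model change among those that passed, Gars, Kars, the most abundant member of each class, any passed member opposing its class in the model (0 found), and in each other comparison the 3 members with the smallest adjusted p. Alternatives covered the filter (none, or 1 FPKM), the pseudocount (0.1, 0.5), median-ratio scaling, coding or top transcripts, the groups fitted, the sample number as a block, the fold cutoff and each liver left out. Voom of limma on recovered fragments was added after seeing the data. Of low values, 99.2 to 99.4% were whole fragments within 0.05.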

Additional observations from a re-analysis of the deposited data

How the results depend on the processing

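Numbers in this part count both directions, and settings that changed a number less are not all listed. The number of cytosolic members that passed in the model against the control group was 11, and 7 with the transcript of highest mean alone, 7 with the fold cutoff and 9 to 12 with each liver left out. After scaling 7 passed as higher and 2 as lower, and on protein-coding transcripts 8 passed as higher. For mitochondrial members the number was 4, and 2 on protein-coding transcripts, 1 with the fold cutoff and 3 to 5 with each liver left out. After scaling 2 of them passed as higher and 4 as lower. For silibinin against model the cytosolic number was 10, and 6 on protein-coding transcripts, 6 with the top transcript, 6 with the fold cutoff and 5 to 14 with each liver left out. The mitochondrial number was 1, and 0 with the filter at 1 FPKM, 2 after scaling, 0 with the fold cutoff and 0 to 2 with each liver left out. For phloridzin against model the cytosolic number was 9, and 5 on protein-coding transcripts, 4 with the top transcript, 6 with the fold cutoff and 5 to 14 with each liver left out. The mitochondrial number was 1, and 0 with the filter at 1 FPKM, 0 after scaling, 2 with the top transcript, 0 with only the 2 compared groups fitted, 2 by voom, 0 with the fold cutoff and 0 to 3 with each liver left out. For phloridzin against control the cytosolic number was 0, and 1 after scaling, 1 with the top transcript and 0 to 1 with each liver left out, and the mitochondrial number was 0, and 1 after scaling. The numbers for phloridzin against silibinin and silibinin against control were 0 under every setting. The cause was not tested, save that the fold cutoff can only remove calls. Of the values of named members, 1888 kept direction and side of the threshold, 80 lost the call, 19 gained it and 95 changed sign, of which 93 passed in neither fit. Dars and Fars2 in the model passed once reversed by median-ratio scaling. Of class medians, 251 kept their value within the spread and 13 did not.

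Values that changed sign are given as deposited and under the setting, with 0.00 for values of either sign that round to 0. Model against control, after median-ratio scaling: Dars 0.01 to -0.42 and Fars2 0.08 to -0.33. Silibinin against model, after median-ratio scaling: Aars2 -0.04 to 0.13. Phloridzin against model, after median-ratio scaling: Fars2 0.00 to 0.16. Phloridzin against silibinin, after median-ratio scaling: Wars2 0.02 to 0.00 and Kars 0.00 to -0.03. Silibinin against control, after median-ratio scaling: Iars 0.07 to -0.14, Hars2 0.19 to -0.02, Kars 0.17 to -0.05, Dars 0.07 to -0.16, Fars2 0.09 to -0.12 and Pars2 0.03 to -0.08. Phloridzin against control, after median-ratio scaling: Wars 0.07 to -0.10, Sars 0.10 to -0.14, Iars 0.12 to -0.12, Hars2 0.03 to -0.21, Kars 0.18 to -0.08, Dars 0.11 to -0.15 and Fars2 0.08 to -0.17. Model against control, on protein-coding transcripts: Dars 0.01 to -0.01, Fars2 0.08 to -0.11 and Pars2 -0.01 to 0.03. Silibinin against model, on protein-coding transcripts: Cars2 -0.76 to 0.05 and Hars2 -0.32 to 0.08. Phloridzin against model, on protein-coding transcripts: Fars2 0.00 to 0.22. Phloridzin against silibinin, on protein-coding transcripts: Wars2 0.02 to -0.08. Phloridzin against control, on protein-coding transcripts: Cars2 0.45 to -0.01. Model against control, with pseudocount 0.1: Pars2 -0.01 to 0.03. Model against control, with the top transcript: Dars 0.01 to -0.01, Fars2 0.08 to -0.18 and Pars2 -0.01 to 0.46. Silibinin against model, with the top transcript: Hars2 -0.32 to 0.07. Phloridzin against model, with the top transcript: Fars2 0.00 to 0.00. Phloridzin against silibinin, with the top transcript: Eprs -0.06 to 0.14, Cars -0.16 to 0.08, Wars2 0.02 to -0.16 and Kars 0.00 to -0.06. Silibinin against control, with the top transcript: Iars 0.07 to -0.14. Phloridzin against control, with the top transcript: Wars 0.07 to -0.06, Sars 0.10 to -0.04, Fars2 0.08 to -0.18 and Pars2 -0.20 to 0.33. Model against control, by voom: Pars2 -0.01 to 0.91. Phloridzin against model, by voom: Fars2 0.00 to 0.15. Phloridzin against silibinin, by voom: Eprs -0.06 to 0.04 and Wars2 0.02 to -0.17. Phloridzin against control, by voom: Pars2 -0.20 to 0.32. With each liver left out in turn, these members changed sign within the ranges given. Model against control: Dars -0.14 to 0.11 and Pars2 -0.21 to 0.14. Silibinin against model: Fars2 -0.06 to 0.08, Pars2 -0.06 to 0.11 and Aars2 -0.10 to 0.01. Phloridzin against model: Dars -0.05 to 0.23 and Fars2 -0.07 to 0.07. Phloridzin against silibinin: Wars -0.56 to 0.08, Eprs -0.48 to 0.31, Vars -0.21 to 0.39, Iars -0.02 to 0.10, Cars2 -0.21 to 0.10, Wars2 -0.01 to 0.06, Gars -0.14 to 0.03, Kars -0.12 to 0.12, Dars -0.11 to 0.18, Fars2 -0.08 to 0.05 and Aars -0.18 to 0.08. Silibinin against control: Wars -0.02 to 0.63, Eprs -0.60 to 0.19, Sars -0.09 to 0.02, Dars -0.08 to 0.17 and Pars2 -0.17 to 0.18. Phloridzin against control: Wars -0.02 to 0.19, Eprs -0.56 to 0.02, Hars2 -0.13 to 0.19 and Dars -0.04 to 0.24.

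With the sample number as a block, the cytosolic numbers were 11, 8 and 9 and the mitochondrial 5, 1 and 1 for model against control, silibinin against model and phloridzin against model. Livers of the same number correlated at -0.09 to 0.10 over 18 pairs and others at -0.17 to 0.15 over 36, and these ranges overlap. The deposited column names carry other numbers, and a pairing by those was not tested. Voom was chosen after seeing the data. Groups of 3 livers limit every test. FPKM of Eprs, Gars, Ears2, Mars, Yars2, Cars2, Qars, Vars2, Tars2 and Farsa lay mostly outside coding rows, at 2.4 to 41.5% coding, and assembled rows without a symbol could hold transcripts of members. Gars had 45 to 167 fragments per liver, which limits their values. Bulk tissue does not separate cell types, and model liver 1 had the smallest library, of 83.7 M fragments.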
